A study of Mus musculus with 6 samples.

Results

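Chromatin accessibility was examined at 44 imprinted genes of the mouse, 37 coding and 7 noncoding, out of 32093 coding and long noncoding genes of the GENCODE annotation of mm10. The genes were taken by name and lie in 21 clusters or single loci. For each gene, peaks with a summit within 1 kb of an annotated start site were called promoter peaks, and further peaks were taken with a summit within 20 kb of the gene. The 6 ATAC-seq libraries came from wild type C57 males of 3 to 4 weeks, and nothing in the labels says that the libraries of a condition came from separate animals. The study's reporting summary calls the ATAC-seq libraries of a group biological replicates. The stromal vascular fraction of subcutaneous fat was differentiated for 7 days into beige adipocytes (2 libraries) or white adipocytes (2 libraries), and that of brown adipose tissue into brown adipocytes (2 libraries). All media held 0.5 mM IBMX and, by the labels, 5 µg/ml insulin, although the study's methods give lower insulin doses that differ between the beige and white media. The beige and brown media also held 5 µM dexamethasone, 1 nM T3 and 1 µM rosiglitazone, whereas the white medium held 1 µM dexamethasone and neither T3 nor rosiglitazone. Beige and brown cultures thus shared their additives and differed in depot, while beige and white cultures shared their depot and differed in medium. The methods of the study describe the beige and white cultures, and the brown ones are known here from the labels alone. The study's reporting summary does not list the brown libraries either. Whether they were prepared together with the others is not stated in the sources used here. Depot and preparation thus cannot be told apart in comparisons with brown. The cultures were mixed cells, and fewer cells of a type and less accessible chromatin per cell cannot be told apart.

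An imprinted gene is transcribed mainly from the copy inherited from one parent. The choice is written as DNA methylation at a control region in the egg or the sperm, and is kept on that copy after fertilisation by the zinc finger protein ZFP57 and its partners. On the unmethylated copy of some control regions the insulator protein CTCF or the factor YY1 can bind. Many imprinted genes act in growth and in adipose tissue, among them the growth factor Igf2, the preadipocyte factor Dlk1 and the adipose expansion gene Mest. A peak list cannot say which of the parental copies is accessible, and it does not measure transcription.

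The regions on which the results below turn are given here on the strand of their gene, 5′ to 3′, from the mm10 assembly. The windows upstream of H19 show the CTCF core CGNGGNGGC and the ZFP57 hexamer TGCCGC, on either strand, in capitals. H19 regions A, B, C and D are named in order of distance from the start of the gene, and each window is centred on the strongest summit.
H19 region A (chr7:142580245-142580445): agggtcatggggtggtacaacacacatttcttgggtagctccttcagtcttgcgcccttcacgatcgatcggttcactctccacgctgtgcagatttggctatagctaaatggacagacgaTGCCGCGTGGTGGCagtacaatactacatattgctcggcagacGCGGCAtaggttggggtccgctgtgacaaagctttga
H19 region B (chr7:142580663-142580863): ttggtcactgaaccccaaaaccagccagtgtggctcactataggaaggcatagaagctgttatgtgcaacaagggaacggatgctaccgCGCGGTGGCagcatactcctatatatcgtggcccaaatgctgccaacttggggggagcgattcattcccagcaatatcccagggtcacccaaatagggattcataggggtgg
H19 region C (chr7:142581710-142581910): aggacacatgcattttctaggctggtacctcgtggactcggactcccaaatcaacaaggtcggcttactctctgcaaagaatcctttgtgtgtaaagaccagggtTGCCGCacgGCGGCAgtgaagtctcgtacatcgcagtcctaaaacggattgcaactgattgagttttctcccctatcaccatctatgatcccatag
H19 region D (chr7:142581948-142582148): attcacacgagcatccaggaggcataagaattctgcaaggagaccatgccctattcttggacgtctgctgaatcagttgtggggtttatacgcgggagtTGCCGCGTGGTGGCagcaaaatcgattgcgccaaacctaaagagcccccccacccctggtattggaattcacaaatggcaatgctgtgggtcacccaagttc
In regions A and D a hexamer and the CTCF core overlapped by 1 base, so that both appear as a single run of capitals.

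The windows from the start and the following intron of Peg3 show the YY1 letters GCCATNTT in capitals. The promoter window lies at a summit 868 bp inside the gene, and the intron windows at the strongest summits of beige library 2 and of brown library 2.
Peg3 promoter (chr7:6729453-6729653): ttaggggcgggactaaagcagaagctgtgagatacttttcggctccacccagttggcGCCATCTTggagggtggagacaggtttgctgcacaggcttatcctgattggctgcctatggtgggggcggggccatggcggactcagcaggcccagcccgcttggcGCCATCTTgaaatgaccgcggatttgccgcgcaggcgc
Peg3 intron, beige summit (chr7:6727758-6728056): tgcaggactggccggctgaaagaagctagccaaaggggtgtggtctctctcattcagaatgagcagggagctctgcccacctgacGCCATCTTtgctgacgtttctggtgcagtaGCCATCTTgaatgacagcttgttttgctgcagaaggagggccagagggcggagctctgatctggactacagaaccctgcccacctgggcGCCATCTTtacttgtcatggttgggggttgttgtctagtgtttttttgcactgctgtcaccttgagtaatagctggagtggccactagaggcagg
Peg3 intron, brown summit (chr7:6728356-6728654): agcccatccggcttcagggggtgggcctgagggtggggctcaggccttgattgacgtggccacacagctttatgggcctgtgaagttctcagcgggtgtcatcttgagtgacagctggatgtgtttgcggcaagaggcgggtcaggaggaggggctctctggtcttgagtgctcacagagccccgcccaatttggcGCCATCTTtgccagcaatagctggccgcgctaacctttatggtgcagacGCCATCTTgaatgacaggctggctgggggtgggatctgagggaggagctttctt

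A further group shows a promoter with 2 copies of the ZFP57 hexamer (Peg13), the only member promoter called in all libraries that held the full cAMP response element TGACGTCA (Meg3) and a region called in beige cultures alone (Cdkn1c, with the CTCF core in capitals).
Peg13 promoter (chr15:72809953-72810153): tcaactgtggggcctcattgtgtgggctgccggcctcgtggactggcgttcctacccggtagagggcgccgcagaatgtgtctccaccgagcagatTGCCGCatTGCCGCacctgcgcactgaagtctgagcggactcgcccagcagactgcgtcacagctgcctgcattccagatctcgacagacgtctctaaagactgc
Meg3 promoter (chr12:109540865-109541065): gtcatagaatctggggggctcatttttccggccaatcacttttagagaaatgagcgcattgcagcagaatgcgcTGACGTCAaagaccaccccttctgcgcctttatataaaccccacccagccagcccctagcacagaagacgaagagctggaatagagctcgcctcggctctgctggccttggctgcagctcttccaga
Cdkn1c downstream region (chr7:143445812-143446110): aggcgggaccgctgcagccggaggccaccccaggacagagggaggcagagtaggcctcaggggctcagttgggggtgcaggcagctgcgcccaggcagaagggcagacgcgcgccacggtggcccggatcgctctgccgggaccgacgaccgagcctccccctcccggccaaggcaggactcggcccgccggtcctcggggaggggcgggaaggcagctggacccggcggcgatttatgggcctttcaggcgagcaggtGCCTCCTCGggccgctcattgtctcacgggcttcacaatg

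The 6 lists held between 109143 and 127490 peaks, which merged into 194610 regions. Because fold enrichment is relative to each library alone, a peak was described by its percentile, the percent of peaks in the same list with a fold enrichment no higher than its own. A library without a promoter peak of a gene was set to a percentile of 0. The lists give no read counts. The study's reporting summary lists sequencing depth for the beige and white libraries, with more mapped reads in both white libraries than in either beige one, and the depth of the brown libraries is not given in the sources used here. The part of depth in the values below was not tested. With 2 libraries against 2 a two-sided exact permutation test cannot go below 0.333 (below 0.133 for 2 against 4). No test was therefore made between conditions, and values are compared with the spread of the libraries. Among markers, all 6 adipocyte genes examined had a promoter peak in all libraries. Of 4 progenitor markers, 2 had one in every library, Pi16 in some and Ly6a in none. Of 4 macrophage markers, Csf1r and Ptprc had none and the other two had one in every library, and of 4 endothelial markers 3 had one in every library and Cdh5 had none. Of 3 brown depot markers, Ucp1, the uncoupling protein of brown fat, had a promoter peak in the brown libraries alone, Zic1 in both brown libraries and beige library 2, and Lhx8 in every library. The Ucp1 peaks were weak, at percentiles of 9.12 and 4.23 and a −log10 q of 3.91 and 2.97. Some other marker calls were weak too, such as Adipoq in beige library 1 at 2.54 and Cd68 in beige library 2 at 0.728. The part of other cells in the values below was not tested.

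Most imprinted genes had an accessible promoter in every culture. A promoter peak was called in all 6 libraries at 34 of the 44 genes (77.3%), against 50.4% of all genes. The share was 30 of 37 for the coding members, against 62.0% of coding genes, and 4 of 7 for the noncoding members, against 25.2% of noncoding genes. H19, Rian, Slc22a18, Ndn and Nnat had a promoter peak in no library. Igf2, Mirg, Ddc and Impact had one in 1 to 5 libraries without a clean division between conditions. Usp29 was the single gene with a promoter peak in both libraries of some conditions and in none of the rest, a pattern that 1.21% of all genes showed. By the copy usually transcribed, 17 of 22 paternally expressed genes, 9 of 13 maternally expressed genes and 8 of 9 genes imprinted by tissue or isoform had a promoter peak in all libraries.

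**Figure D1:**
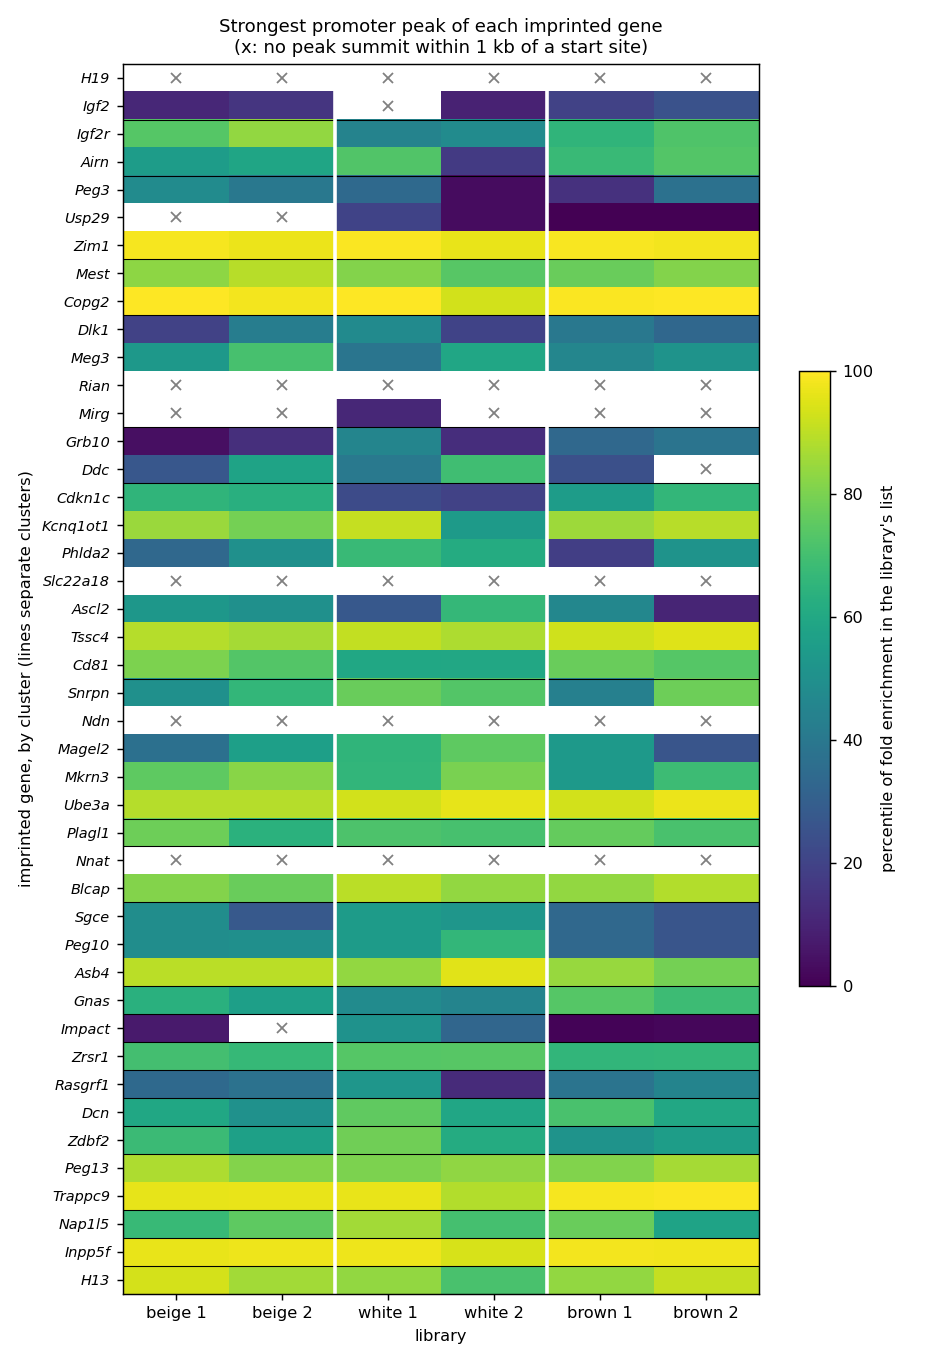
Percentile of the strongest promoter peak of each of the 44 imprinted genes (rows, grouped by cluster) in the 6 libraries (columns); the colour runs from 0 to 100 and a cross marks a library without a promoter peak. 34 genes are filled across all 6 columns and 5 are crossed throughout.

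The promoter peaks of the members ranked lower than those of other genes. Over genes with a promoter peak in all libraries, the median percentile of the members was 69.0 and 69.0 in the beige, 73.2 and 68.6 in the white and 69.5 and 69.9 in the brown libraries. Over all genes it was 88.3 and 87.1, 87.8 and 84.8, and 88.6 and 89.9 in the same order. The members thus lay under the all-gene median in each of the 6 libraries. Paternally expressed members had medians between 54.0 and 72.9 and maternally expressed members between 59.5 and 73.5, while genes imprinted by tissue or isoform lay between 77.5 and 89.7. The 34 member windows of 100 bp to each side of the summit had a median GC content of 61.9% and a ratio of observed to expected CpG of 0.795, against 65.2% and 0.815 over 13732 windows of all genes. This ratio was 0.642 for paternally expressed members, 0.872 for maternally expressed ones and 0.875 for genes imprinted by tissue or isoform.

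The H19 promoter had no called peak, yet 4 regions lay upstream of it, in the stretch known as the control region of Igf2 and H19 (H19, chr7:142575529-142578143, minus strand). H19 is a noncoding RNA expressed from the maternal copy, and CTCF bound at its control region insulates Igf2 from shared enhancers. Region A, centred 2202 bp upstream, was called in every library, at percentiles of 37.1 and 62.2 in beige, 59.8 and 46.8 in white and 13.6 and 17.7 in brown. Both brown values lay below the other four. Region B, centred 2620 bp upstream, was a merged stretch with a peak in every library. Its percentiles were 60.9 and 42.7 in beige, 24.9 and 26.4 in white and 16.3 and 18.2 in brown. Over this stretch the conditions did not overlap, with beige highest and brown lowest. Over all regions called in every library, beige was highest without overlap in 13.1% and brown lowest in 11.1%. Within region B the summits of white library 2 and brown library 1 lay nearer to the gene than those of the other libraries. The peak of white library 2 did not reach the centre of the region and did not overlap that of white library 1. The order of conditions in region B is therefore not that of a single element.

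Regions C and D were called mainly in beige cultures. Region C, centred 3667 bp upstream, had a peak in beige at percentiles of 56.2 and 47.5 and in brown library 1 at 27.4, and none in the white libraries or in brown library 2. Region D, centred 3905 bp upstream, had a peak in beige alone, at 29.3 and 38.2. Its −log10 q was 8.31 and 12.8, above the threshold of the lists at 1.30. A region without a call can still hold signal under that threshold.

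The CTCF letters lay at or near summits in regions A, B and D, though not in every library. The stretch searched, which began upstream of region D and ended within the gene, held 4 matches of the CTCF core, 3 of them upstream and all in the orientation of the gene. The match in region D lay 8 bp from the summit in both beige libraries, and 235 to 1487 bp from the nearest summit of the other libraries. The match in region B lay 6 and 7 bp from the beige summits and at the summit of white library 1, and outside the peak of white library 2. The match in region A fell inside the peaks of all 6 libraries. The match 265 bp inside the gene lay in no peak. Region C held no exact match of these letters and 2 ZFP57 hexamers, on opposite strands. Its stretch CACGGCGGC differs from the CTCF core by a single base. Only exact letters were searched, so this absence does not show that region C lacks a CTCF site. Of 6 hexamers in the stretch, 5 lay in peaks of both beige libraries, 2 in peaks of each white library, 4 in peaks of brown library 1 and 1 in a peak of brown library 2. In windows of 100 bp to each side of the summit, the CTCF core occurred in 2.56% and the hexamer in 4.44% of all 194610 regions. A match of letters is a description and not a bound site.

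**Figure D2:**
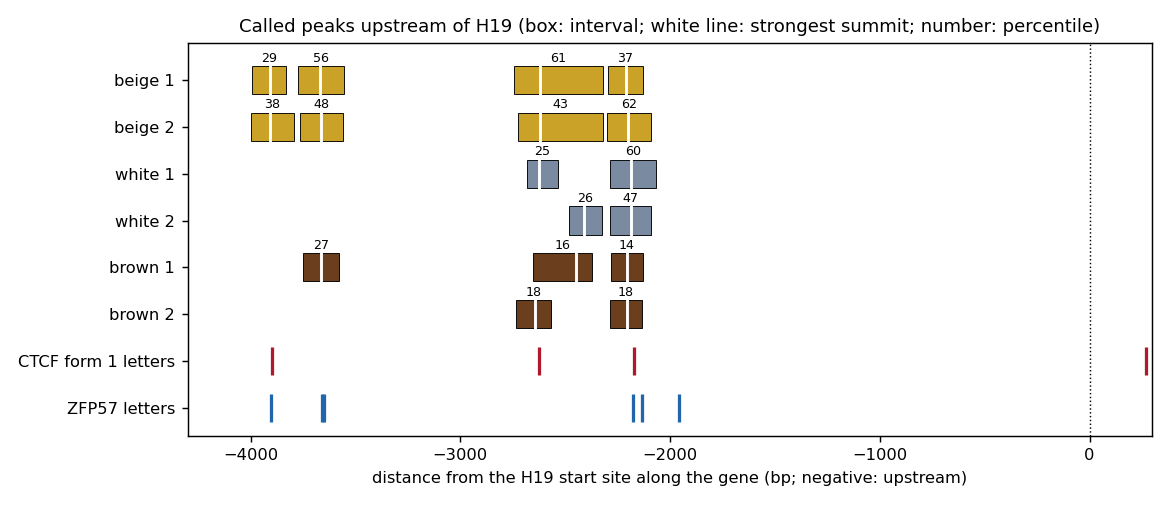
Called peaks upstream of H19 in each library (boxes, with the strongest summit as a white line and the percentile above), by distance in bp from the start site; ticks below mark the CTCF and ZFP57 letters. The peaks centred 3905 bp upstream are in the 2 beige libraries alone, and those about 2202 bp upstream are in all 6.

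Igf2, the fetal growth factor of the same domain (chr7:142650766-142666816), had weak promoter peaks, at percentiles of 11.0 and 15.3 in beige, none and 9.44 in white and 19.8 and 25.2 in brown. The peaks belonged to different start sites. In beige library 1 and brown library 2 the peak lay at the start site at position 142659489, and in beige library 2, white library 2 and brown library 1 at that at 142661305, so the order of conditions is not that of one promoter. A region 9030 bp upstream of Igf2 was called in every library, at 74.9 and 72.4 in beige, 34.1 and 48.1 in white and 37.3 and 19.3 in brown, and the beige values lay above the other four. A weak region in an intron of Igf2, 2612 bp from a start site, was called in beige alone, at percentiles of 11.4 and 11.9.

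At Peg3, which encodes a zinc finger protein and shares its promoter region with the ubiquitin protease gene Usp29 on the other strand, a broad region of the intron was called in all libraries (chr7:6727364-6729039). Its percentile was 49.1 and 43.5 in beige, 55.5 and 41.8 in white and 50.8 and 58.8 in brown, and the conditions overlapped. The interval held 3 to 5 summits in each library. The strongest lay 2521 and 2514 bp inside the gene in beige, 2063 and 2396 bp in white and 2088 and 1916 bp in brown.

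The YY1 letters were repeated along the accessible stretch. Around the start and the first part of Peg3 there were 12 matches, all in the orientation of the gene, and 11 of them lay in a peak in every library. The broad region alone held 9. It was the only one of the 194610 regions with 9 or more, and the only one among 1105 regions of 1500 to 2000 bp (0.0905%). The region was singled out after its matches were seen. The letters occurred in 3.42% of all region windows of that length around the summit (100 bp to each side).

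The strongest promoter peak of Peg3 was at percentiles of 48.2 and 40.0 in beige, 34.1 and 3.47 in white and 14.2 and 37.4 in brown. A peak at the start shared with Usp29 was called in white at 20.1 and 3.47 and in brown at 0.132 and 0.0495, and in neither beige library. Apart from that of white library 1, at a −log10 q of 15.6, these calls were among the weakest of their lists. They did not divide the conditions when a peak was counted by its interval instead of its summit or when only peaks at q under 1e-05 were kept. Zim1, a zinc finger gene transcribed from the maternal copy in the same cluster, had one of the strongest promoter peaks of all members, at 98.8 and 97.0 in beige, 99.5 and 96.7 in white and 99.2 and 98.1 in brown. At a start site of Zim1 inside the gene, at position 6688672, the percentile was 72.6 and 68.1 in beige, 63.5 and 63.8 in white and 76.3 and 81.1 in brown. An intron of the neighbouring gene Zim2 held a region called in beige alone (chr7:6659692-6659929), at 68.3 and 69.6, the highest percentiles among the regions found in beige alone.

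**Figure D3:**
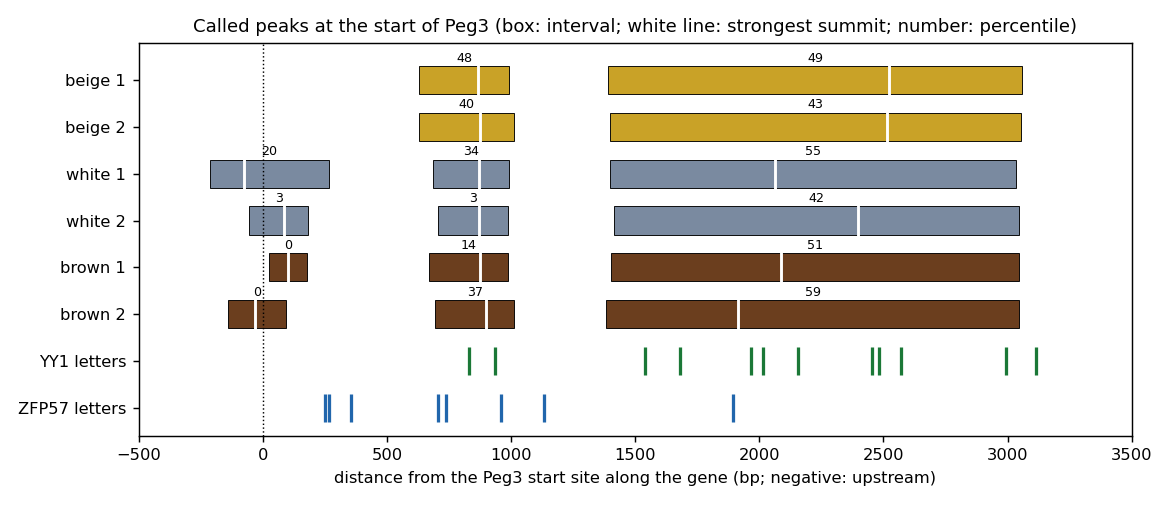
Called peaks at the start of Peg3 in each library (boxes, with the strongest summit as a white line and the percentile above), by distance in bp from the start site; ticks mark the YY1 and ZFP57 letters. The broad interval inside the gene spans every library, whereas the start site carries a box in the white and brown libraries alone.

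In the Kcnq1 cluster, the promoter of Cdkn1c was lower in white cultures. Cdkn1c (chr7:143458339-143461050) encodes a cyclin dependent kinase inhibitor and is expressed from the maternal copy. Its percentile was 65.6 and 63.1 in beige, 22.7 and 19.7 in white and 55.2 and 66.2 in brown. The white mean of 21.2 ± 2.07 (SD, n = 2) lay below the beige mean of 64.3 ± 1.74 (SD, n = 2) and the brown mean of 60.7 ± 7.76 (SD, n = 2). White was lowest without overlap for 5 members, Cdkn1c, Igf2r, Cd81, Gnas and Igf2, out of 39 members with a promoter peak, and for 16.0% of all genes with one, so the share of members was close to that of all genes. The order at Igf2 was kept in 5 of 8 alternative settings and the other four in all 8. A region 15035 bp downstream of the Cdkn1c start was called in beige alone (chr7:143445714-143446164), at 45.5 and 23.8.

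Other genes of the cluster differed in direction. Cd81, a tetraspanin of the cell surface, was at 80.3 and 73.2 in beige, 59.5 and 60.0 in white and 77.1 and 73.6 in brown, with white lowest. Phlda2, a pleckstrin homology protein that limits placental growth, was at 33.8 and 50.1 in beige, 67.7 and 61.7 in white and 18.5 and 51.5 in brown, with white highest. Tssc4, a splicing factor, was at 88.7 and 86.3, 90.8 and 87.5, and 92.6 and 94.9, with brown highest by a small margin. Kcnq1ot1, the noncoding RNA whose transcription silences genes of the cluster on the paternal copy, was at 85.0 and 79.1 in beige, 91.2 and 54.4 in white and 85.5 and 89.1 in brown. Ascl2, a helix-loop-helix factor, was at 52.9 and 50.4 in beige, 27.4 and 66.6 in white and 46.4 and 10.4 in brown. Both overlapped between the conditions. The transporter gene Slc22a18 had no promoter peak, also within 2 kb.

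Igf2r, the receptor that clears IGF2 and is expressed from the maternal copy, also had its lowest promoter values in white. Its promoter percentile was 73.5 and 83.8 in beige, 44.9 and 48.3 in white and 65.5 and 72.4 in brown (means 78.6 ± 7.29, 46.6 ± 2.46 and 68.9 ± 4.89, SD, n = 2 each). The white libraries lay lowest, in all 8 alternative settings too, and the beige ones highest, an order lost with equally long lists. The promoter of Airn, the paternal noncoding RNA that starts inside Igf2r and silences it, was at 55.2 and 58.7 in beige, 72.9 and 17.2 in white and 67.8 and 73.4 in brown. The white libraries of Airn lay on both sides of the beige values. In annotated introns of Airn a region was called in the beige and white libraries but in neither brown one (chr17:12799350-12799906), at 54.1, 55.6, 75.7 and 66.5, and another in beige and brown and not in white (chr17:12804651-12805340), at 9.74, 28.8, 63.4 and 24.2.

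Gnas, which encodes the stimulatory G protein subunit that couples adrenergic receptors to cAMP, has several promoters with different imprinting. Over all of them the strongest peak was at 63.4 and 56.6 in beige, 48.3 and 45.3 in white and 73.6 and 68.7 in brown. White was lowest and brown highest in this value for the whole gene. The start sites differed, as given below, and which of them serves the stimulatory subunit was not examined. At the start site at position 174327768 of chromosome 2, the values were 61.3 and 56.6, 48.3 and 29.3, and 73.6 and 68.7, in the same order. At position 174284320 they were 63.4 and 50.8, 41.1 and 45.3, and 64.6 and 45.7. There white was again lowest, with the higher white value just under the lower brown one. At 174297859 brown library 2 had no peak and the other values lay between 6.90 and 29.9. At the start sites from 174330006 on the conditions overlapped, between 18.1 and 43.0.

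**Figure D4:**
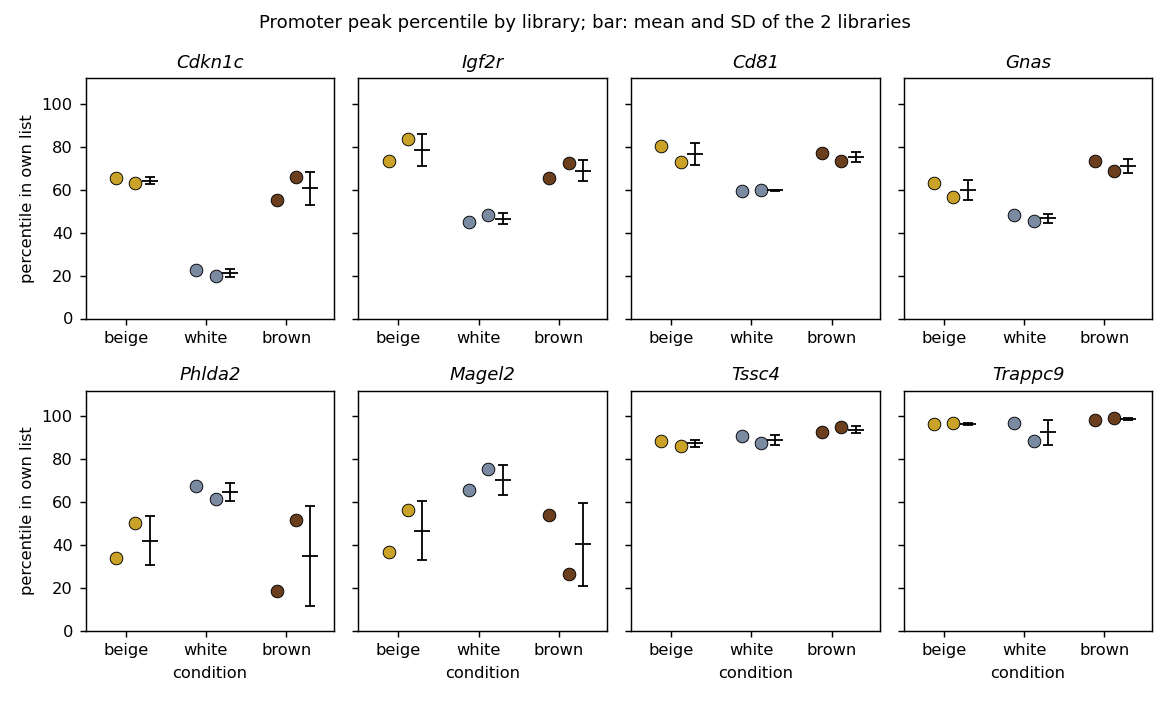
Promoter percentile in each library (points) with the mean and SD of the 2 libraries (bars) for 8 imprinted genes at which 1 condition lay apart from the other two in all of the 8 alternative settings tried. White is lowest for Cdkn1c, Igf2r, Cd81 and Gnas and highest for Phlda2 and Magel2, and brown is highest for Tssc4 and Trappc9. The Gnas values are those of the strongest peak over all its start sites, which differed among themselves.

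White was highest without overlap for 7 of the 39 members with a promoter peak, against 8.58% of the 19834 genes with one. Besides Phlda2 and Usp29 these were Magel2, Sgce, Peg10, Zrsr1 and Impact. The order at Phlda2 and Magel2 held in all 8 alternative settings, and at the other five it was lost in 1 to 3 of them. Of the 7, 6 are expressed from the paternal copy and Phlda2 from the maternal one, where 20 of the 39 members with a promoter peak are paternal and 10 maternal. Of the 5 with white lowest, Igf2 is paternal, Gnas is imprinted by tissue or isoform and the others are maternal. Sgce, a sarcoglycan, and Peg10, a gene derived from a retrotransposon, start back to back and share peaks, so they are not independent. Peg10 was at 48.9 and 49.7 in beige, 54.9 and 66.1 in white and 33.7 and 26.4 in brown, and brown was lowest. Zrsr1, which lies inside an intron of Commd1 and is related to a splicing factor, was at 70.0 and 67.2, 73.6 and 74.0, and 65.7 and 66.3, also with brown lowest. The strongest summit lay inside the gene for Zrsr1 in beige library 2 and brown library 1, and for Peg10 in beige library 2 and white library 2. In the other libraries it lay upstream of the start. Both orders thus compare different peaks, and brown was no longer lowest for either gene with summits within 500 bp. Impact, an inhibitor of the kinase GCN2, was at 7.40 and none, 51.0 and 32.9, and 1.06 and 1.61. Its weak promoter peaks contrasted with a region 1848 bp from its start, in the intron (chr18:12972981-12974591), which was called in every library at 73.2 to 77.7.

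The remaining directions held few members. Beige was highest for Igf2r, Peg3 and Mest (9.74% of genes with a promoter peak) and lowest for Usp29, Ube3a and Blcap (8.95%). Brown was highest for Igf2, Tssc4, Gnas, Trappc9 and Inpp5f (14.0%) and lowest for Ddc, Peg10, Zrsr1 and Zdbf2 (5.45%). Of these orders, Tssc4 and Trappc9 held in all 8 alternative settings and each of the others was kept in 5 to 7 of them. Trappc9, a subunit of a trafficking complex, was at 96.3 and 96.7 in beige, 96.7 and 88.5 in white and 98.5 and 99.3 in brown. Inpp5f, an inositol phosphatase, was at 96.6 and 97.5 in beige, 97.4 and 93.8 in white and 98.3 and 98.0 in brown. Blcap, which surrounds Nnat, was at 81.6 and 77.0 in beige, 89.5 and 83.6 in white and 83.8 and 88.3 in brown. These promoters ranked high in every library, and the margins were narrow. Zdbf2 was at 68.0 and 56.7 in beige, 78.3 and 61.7 in white and 51.3 and 55.6 in brown, with brown lowest. Sgce was at 48.9 and 27.8 in beige, 54.9 and 52.4 in white and 33.7 and 26.4 in brown. The median difference of white from the mean of beige and brown was 0.0759 percentile points over the 39 members with a promoter peak, against -1.13 over 19834 genes.

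Mest, a hydrolase-fold protein known for its rise in expanding fat, was at 83.2 and 89.1 in beige, 81.4 and 74.0 in white and 77.0 and 81.6 in brown. The strongest summit lay upstream of the start site at position 30738050 in all libraries, within a distance of 1 kb. A weaker peak at the start itself was at 45.4 and 35.7 in beige, 59.6 and 65.6 in white and 38.7 and 72.7 in brown. There both white values lay above both beige ones. With summits within 500 bp beige was no longer highest. Copg2, a coatomer subunit next to Mest, was at 99.9 and 98.4 in beige, 99.8 and 93.2 in white and 99.4 and 99.6 in brown and overlapped between conditions. A region of a Copg2 intron was called in the white and brown libraries but in neither beige one (chr6:30805166-30805716), at 35.0, 11.6, 38.0 and 70.9. A neighbouring region (chr6:30804691-30805113) was called in every library, at 7.37 and 20.3 in beige against 66.7 to 80.7 in the other four. A region 29351 bp upstream of a start site of Mest was called in white alone, at 26.2 and 23.7. That start site lies inside the annotated gene, and the region lies within 20 kb of the gene itself.

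At the Dlk1-Meg3 cluster the conditions overlapped. Dlk1, the preadipocyte factor that restrains differentiation and is expressed from the paternal copy, was at 19.6 and 42.3 in beige, 47.8 and 20.1 in white and 40.1 and 33.4 in brown. Meg3, the maternal noncoding RNA, was at 53.2 and 70.8 in beige, 38.9 and 59.1 in white and 46.0 and 51.5 in brown. Its summits lay 3 to 47 bp upstream of the start, within the window shown above with the cAMP response element. Among member promoter windows this element occurred in 1 of 34 (2.94%), against 2.85% of all promoter windows. A region 9207 bp upstream of Meg3 (chr12:109531499-109532187) was called in every library, at 60.7 to 81.4. Rian, the host of small nucleolar RNAs, had no promoter peak but an exon region (chr12:109626924-109627283) in all libraries, at 82.7 to 97.0. Mirg, the host of microRNAs, had a promoter peak in white library 1 alone, at 11.2, and an intergenic region 12144 bp from its start (chr12:109749633-109750337) was among the strongest of the cluster, at 95.4 to 99.1. None of the 27 further regions of this cluster divided the conditions.

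The Snrpn cluster, which is the mouse counterpart of the Prader-Willi and Angelman region, held both strong and absent promoters. Snrpn, a small nuclear ribonucleoprotein, was at 50.1 and 66.1 in beige, 77.2 and 73.1 in white and 43.7 and 78.0 in brown. Ube3a, the ubiquitin ligase, was at 89.0 and 88.7, 93.1 and 96.2, and 93.1 and 97.3, with beige lowest. Magel2, a MAGE protein, was at 37.0 and 56.5 in beige, 65.5 and 75.4 in white and 54.0 and 26.5 in brown, with white highest, and a region 1156 bp upstream of it was called in beige alone, at 45.6 and 46.0. Mkrn3, a makorin ring finger protein, was at 75.0 and 82.1 in beige, 65.8 and 79.8 in white and 53.8 and 68.5 in brown and overlapped between conditions. Ndn, which encodes necdin, had no promoter peak within 1 kb, but a region in its exon, 1723 bp from the start (chr7:62348110-62349139), was called in every library at 77.2 to 95.5.

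Of the other members, Grb10, the adaptor that restrains the insulin receptor, had weak promoter peaks at 3.91 and 13.3 in beige, 45.5 and 12.98 in white and 33.6 and 38.5 in brown. A region at an exon of Grb10 (chr11:12025570-12026612) was stronger, at 85.4 to 94.1 in all libraries, and held 4 ZFP57 hexamers. Ddc, dopa decarboxylase, was at 27.0 and 58.1, 40.3 and 69.3, and 24.4 and none. Asb4, an adaptor of a ubiquitin ligase, had a strong promoter peak at 79.2 to 95.3. At its other start site, at position 5390427 of chromosome 6, a peak was called at 47.8 and 64.4 in beige and 69.0 and 77.5 in white and in neither brown library. This was 1 of 75 groups of start sites, joined where they lay within 1 kb of each other, 2 of which divided the conditions. Dcn, decorin of the extracellular matrix, was at 27.7 and 38.4 in beige, 75.4 and 54.4 in white and 71.2 and 59.9 in brown at the start site at position 97479609 of chromosome 10, with beige lowest, whereas at its other start site the conditions overlapped. A region 11551 bp upstream of Dcn (chr10:97467888-97468307) was called in beige and brown and not in white, at 51.6, 58.2, 61.0 and 65.7. The start-site values of Asb4, Dcn and Zim1 were picked out after they were seen.

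The remaining members were described by their range. H13, a signal peptide peptidase, lay at 71.3 to 93.6, Peg13, a noncoding RNA, at 80.3 to 87.7, Nap1l5 at 58.0 to 86.1, the zinc finger gene Plagl1 at 63.8 to 77.9 and Rasgrf1, an exchange factor, at 12.3 to 52.6. Nnat, neuronatin, which lies within Blcap, had no promoter peak.

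Around the 44 genes 355 further regions were found. Of these, 102 (28.7%) were called in all 6 libraries, against 30.2% of all regions, and 135 (38.0%) in 1 library. A division by condition was seen in 21 regions (5.92%), against 6.70% of all regions. The largest class was beige alone with 8 regions, followed by beige and white with 5, beige and brown with 3, white alone and brown alone with 2 each and white and brown with 1. The shares were near those of all regions.

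**Figure D5:**
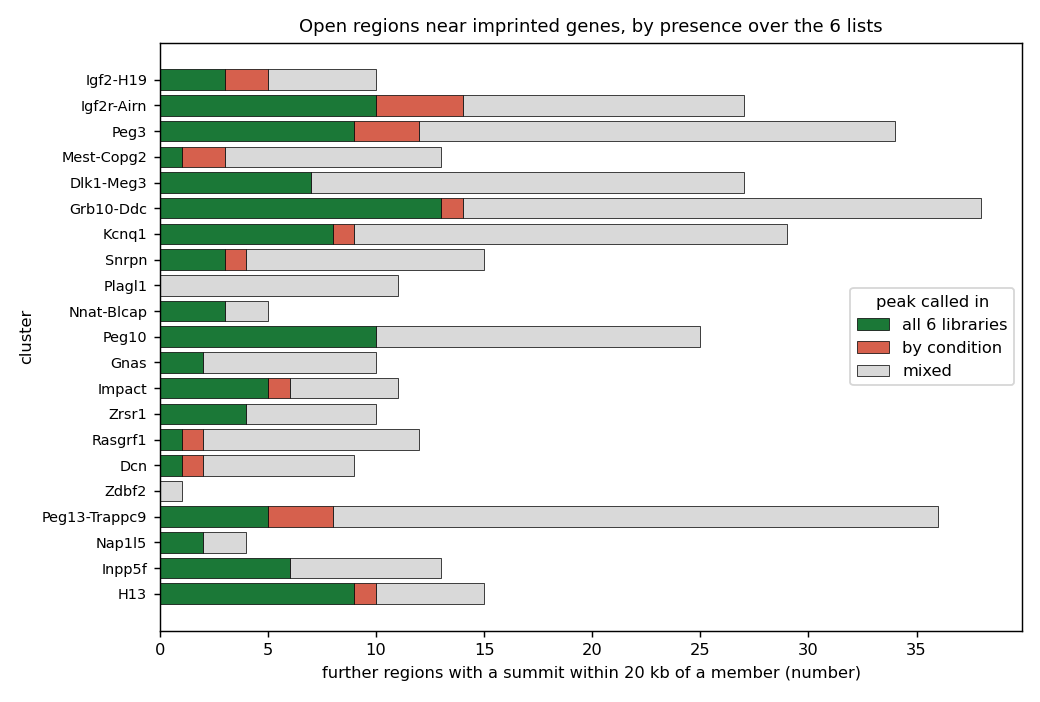
Number of further regions within 20 kb of the members of each cluster (bars), divided into those called in all 6 libraries, those called in both libraries of 1 or 2 conditions and in none of the rest, and mixed ones. The Igf2r-Airn cluster holds 4 regions divided by condition, the most of any cluster, and the Dlk1-Meg3 cluster none.

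The shares of promoter windows with the ZFP57 and CTCF letters were counted beside those of all promoters. The hexamer occurred in 8 of 34 promoter windows (23.5%), against 18.4% of all promoter windows, and the CTCF core in 4 (11.8%), against 15.8%. The hexamer was found at Peg3, Zim1, Grb10, Snrpn, Plagl1, Sgce, Peg13 and Nap1l5, with 3 copies at Nap1l5 and 2 at Peg13. The ETS letters CCGGAAG occurred in 2 windows (5.88%), against 14.3%. Among further regions 5 held 3 or more hexamers, at Grb10, Impact, H13, Gnas and Mkrn3, and 3 of them, at Grb10, Impact and H13, were called in all libraries. Of all 194610 regions 0.678% held as many, and of the 8788 regions of 1000 bp or more 10.1%, so the share rises with length. Of the 8 further regions of 1000 bp or more, 2 held as many. Of the 192 further regions of 200 to 600 bp, 3 did, against 0.112% of all 99226 regions of that length. These few regions were not tested.

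Other lists were counted beside the members. Of 41 other imprinted genes found in the annotation, 29 had a promoter peak in all libraries, 6 in none and 6 in some, and none divided the conditions. By percentile without overlap, white was highest for 2 of the 41 and lowest for 2. Beige was highest for 1 and lowest for 3, and brown highest for 1 and lowest for 3. Of 15 genes that maintain or read imprints, 14 had a promoter peak in every library and Dppa3 had none. Zfp57 itself was at 76.5 and 76.8 in beige, 90.8 and 91.5 in white and 79.3 and 86.5 in brown, with white highest and beige lowest. It was the only gene of this list with white highest, whereas white was lowest for Dnmt1, Uhrf1 and Arid4a and brown highest for Ctcf and Arid4b. Over all genes with a promoter peak, the shares highest and lowest were 8.58% and 16.0% for white, 9.74% and 8.95% for beige and 14.0% and 5.45% for brown. The counts in both lists were too few to set apart from these shares. Trim28 and Zfp445 of the same list lay at 89.4 to 95.8 and 95.7 to 99.7.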

How the data were processed

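ATAC-seq measures accessible chromatin by transposase insertion. As the study's methods state for the beige and white libraries, the authors trimmed reads, aligned them to mm10 with BWA and called peaks in each library with MACS2 at q under 0.05; the labels name the same aligner, caller and build for the brown libraries. The authors' deposited peak lists give a fold enrichment (a ratio to the local background) and a −log10 q at each summit. Both are relative to 1 library, so they were turned into percentiles within a list. Summits of an interval were counted once, at the highest −log10 q. Start sites came from basic coding and long noncoding transcripts of GENCODE M21. Motif letters were searched on both strands within 100 bp of a summit. Peaks were handled with pandas 2.3.3 and numpy 2.4.6 in Python 3.11.15, sequences with pysam 0.24.0 and figures with matplotlib 3.10.9, and the counting was tested on simulated peaks. All 44 members were accounted for, with values in every library for those that differed between conditions and for the Igf2-H19, Kcnq1, Dlk1-Meg3, Peg3, Mest and Snrpn clusters. Members, lists and motifs were chosen with earlier results of these data known, and the printed sequences after their values were seen. Alternatives were other promoter distances, interval overlap, stricter q, equally long lists, all transcripts, other ranks, other distances for further regions and leaving out each library.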

Additional observations from a re-analysis of the deposited data

How the results depend on the processing

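Every alternative kept the sign of the differences of white from beige and brown at Cdkn1c, Igf2r, Cd81 and Gnas, which were picked out after their values were seen. No paired analysis was possible because the labels do not say which libraries of different conditions belong together. The counts and percentiles come from no test. The number of members whose promoter peak divided the conditions, 1 in the report, was 2 with summits within 500 bp, 0 within 2 kb, 0 by interval overlap, 2 with each group of start sites on its own (chosen after seeing the data) and 1 to 3 with a library left out. Members with no promoter peak fell from 5 to 2 within 2 kb. For the alternatives, the median percentile was taken over all 44 members, with 0 where no peak was called, and averaged over the libraries of a condition. It thus differs from the medians given above for genes with a promoter peak in all libraries. This median was 57.9 in beige, 61.7 in white and 56.4 in brown. In the same order it was 67.2, 69.8 and 68.4 within 2 kb and 48.0, 48.9 and 43.5 at q under 1e-05. It was 67.2, 69.1 and 68.2 with all transcripts and 46.7, 50.1 and 41.7 when ranked among promoter peaks. For beige and white it was 55.4 and 59.4 within 500 bp, 52.5 and 57.9 in equally long lists and 67.5 and 67.6 ranked by −log10 q. Members apart in any condition numbered 21 of the 39 with a promoter peak, near the share of all genes (9840 of 19834 with one). With a library left out they numbered 24 to 35 instead of 21 (33 without white library 1 and 35 without white library 2). Those with white lowest numbered 5 to 15 instead of 5 (15 without white library 1, 8 without brown library 1). A single library in a condition cannot overlap with itself, which raises such counts. Further regions numbered 536 within 50 kb, 33 of them divided by condition, and 44 to 67 were so divided with a library left out, against 21. Ranked among promoter peaks, the white difference was -25.3 at Cdkn1c (against -41.3), -17.0 at Igf2r (-27.2), -9.53 at Cd81 (-16.3) and -10.2 at Gnas (-18.8). It was -10.8 at Cd81 ranked by −log10 q and -7.76 at Gnas with all transcripts. The cause of these shifts was not tested. The lists hold no read counts, so the effect of the deeper white libraries, and signal under the peak threshold, were not tested.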
